A study of Mus musculus with 44 samples.

Results

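The comparison described here sets mouse macrophages treated for 24 h with an extract of H9c2 cells against the same macrophages treated for 24 h with lipopolysaccharide (LPS). It takes in 7 of the 44 polyA RNA libraries of the study, chosen by treatment and time alone: 3 libraries of cells given 10 µg/mL H9c2 cell extract (replicates 2, 3 and 4) and 4 of cells given 100 ng/mL LPS (replicates 1 to 4). All cells were thioglycolate-induced peritoneal macrophages of C57BL/6 mice, collected 4 d after the injection, taken as the cells still adherent after 24 h in culture and kept in DMEM with 10% fetal bovine serum and antibiotics. A single isolate pooled from several mice supplied every library, so the replicates are separate samples of 1 pool of cells and the p-values below measure only the spread between those samples. Libraries of 4 untreated cultures at 24 h, and of the same treatments at 8 h (4 cell extract, 4 LPS) and 72 h (3 cell extract, 4 LPS), are used for reference; the study also holds interleukin-4 libraries, which entered the fit but no comparison here. The labels do not say what the extract contained, and the doses of the extract and of LPS are in different units and were not matched for strength.

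H9c2 is a myoblast line derived from embryonic rat heart, and its extract stands for what broken cells release into a tissue; molecules of that kind are called damage-associated molecular patterns. LPS is the cell wall glycolipid of Gram-negative bacteria. It binds Toll-like receptor 4 on macrophages, which signals through the adaptor Myd88 to NF-kB and inflammatory cytokine genes, and through the adaptor Ticam1 to the interferon regulatory factor Irf3 and type I interferon. Secreted interferon then acts back on the cells through factors that include Stat2 and Irf9, which bind the interferon-stimulated response element (ISRE) of antiviral, GTPase and antigen-presentation genes. Macrophages with high Nos2, Il12b and Cxcl10 are conventionally called M1 and those with high Arg1, Mrc1 and Retnla M2.

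The 7 libraries held 3593885 to 17398860 counts assigned to genes, with LPS replicate 1 the shallowest and cell extract replicate 3 the deepest. LPS replicate 3 stood apart in content. Of its reads either assigned to a gene or ambiguous between genes, 12.21% were ambiguous, against 3.335 to 4.95% in the other 6 libraries. Lars2, the mitochondrial leucyl-tRNA synthetase, took 2.153% of the gene counts of LPS replicate 3 against 0.0229 to 0.4009%. Ribosomal RNA entries were high in LPS replicate 3 too. Rn18s-rs5 took 4.279% of its counts against 0.02753 to 0.574%, and mt-Rnr2 0.9814% against 0.2416 to 0.3559%. Untreated replicate 3 was alike, with 13.57% ambiguous by the same measure, 2.689% of counts in Lars2 and 4.693% in Rn18s-rs5. Without LPS replicate 3, 995 genes were called higher and 1184 lower in the comparison given below. Values below are CPM (gene counts divided by the TMM-scaled library size, as edgeR gives them), in replicate order with the 3 cell extract values (replicates 2, 3 and 4) before the 4 LPS values (replicates 1 to 4), and log2 differences are cell extract minus LPS, ± SE, from edgeR's quasi-likelihood fit of 14537 genes with Benjamini-Hochberg adjusted p-values. Within groups, the log CPM of library pairs correlated at 0.9889 to 0.9908 (cell extract) and 0.9694 to 0.9874 (LPS) across genes, and between the groups at 0.9378 to 0.9616. Defining macrophage genes were high in all 7 libraries: the 12 macrophage markers summed to 20060 to 20520 CPM with cell extract and 8964 to 10130 CPM with LPS, most of it lysozyme (Lyz2). Of the other 9 marker lists, 4 had sums that did not overlap between the groups. The 11 neutrophil markers summed to 220.3 to 268.5 CPM with cell extract and 68.03 to 77.75 CPM with LPS, all but a few CPM from S100a8 and Mmp8, while the other 9 had group means of 0 to 2.377 CPM, the highest in Camp (2.055 CPM with cell extract, 2.377 CPM with LPS and 0.02675 CPM in untreated cultures) and Ngp at 0 throughout. The 6 smooth muscle markers summed to 31.11 to 35.61 CPM against 14.02 to 17.06 CPM, mostly through Acta2 and Tagln. The 6 B cell markers summed to 10.37 to 12.46 CPM against 12.86 to 17.45 CPM, with none called in either direction and the widest gap in Ms4a1 (mean 2.906 against 5.116 CPM). The 7 dendritic cell markers summed to 8.114 to 11.57 CPM against 12.01 to 20.42 CPM, mostly through Ccr7 (mean 4.773 against 9.855 CPM), with 1 of 6 tested called lower, while Clec9a (1.425 against 0.5152 CPM) and Flt3 (0.8496 against 0.5582 CPM) had the higher means with cell extract. The part of any of these lists in the differences below was not tested. In bulk libraries such as these, fewer cells of a type and less RNA per cell cannot be told apart.

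At 24 h, 1172 genes were higher with cell extract than with LPS (8.06% of the genes tested) and 1274 were lower (8.76%) at an adjusted p under 0.05. With the 7 libraries fitted alone, 1867 were higher and 2223 lower. The lower side held interferon-inducible and antigen-presentation genes, and the higher side scavenger receptors, sterol synthesis enzymes and redox genes. The median difference over all genes tested was -0.00541 on the log2 scale. Library ranges did not overlap for 1150 of the higher and 1250 of the lower genes, while 5163 of all genes tested (35.5%) had ranges that did not overlap. Against the untreated cultures, cell extract at 24 h raised 1700 genes (11.7%) and lowered 1509 (10.4%), and LPS raised 2705 (18.6%) and lowered 2809 (19.3%). These 2 comparisons share the control libraries, so their values are set side by side below without an overlap. On the first principal component of the 11 libraries at 24 h (69% of the variance) the untreated cultures lay between 65.6 and 72.1, cell extract between -13.8 and -8.80 and LPS between -62.1 and -54.5. On the second (10.9%) cell extract lay apart from both other groups, between -41.02 and -29.95. There LPS lay between 4.795 and 21.98 and the untreated cultures between 2.656 and 20.89.

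**Figure D1:**
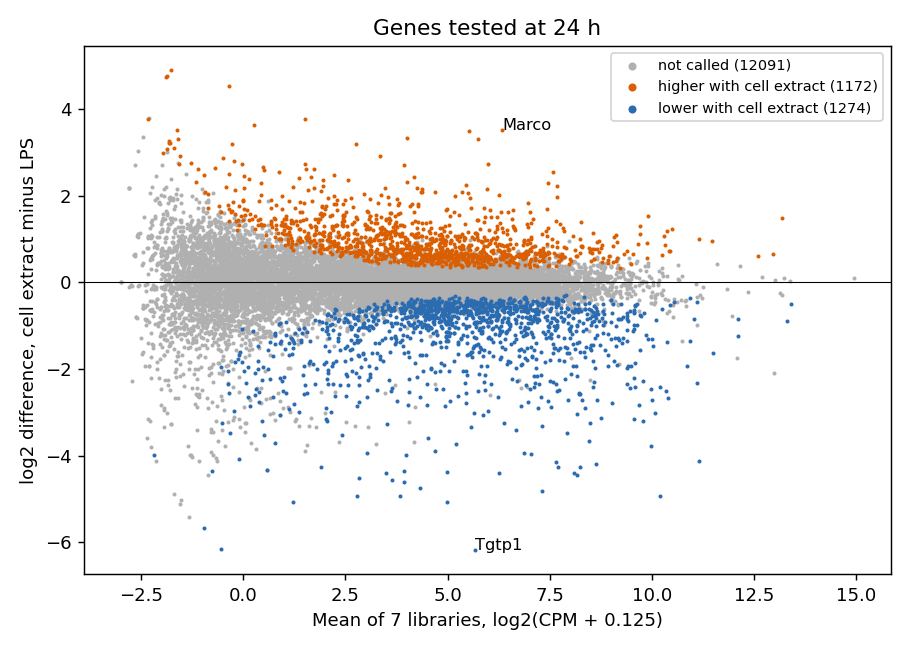
Each point is 1 of the 14537 genes tested, by its mean log2 CPM over the 7 libraries (horizontal axis) and its log2 difference, cell extract minus LPS at 24 h (vertical axis). The 1172 genes called higher are orange, the 1274 called lower are blue and the rest grey; Marco and Tgtp1, described in the text, are labelled.

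The ISRE is the element through which interferon signalling reaches its targets, so the start regions of 4 genes that fell are shown first. The windows are from RefSeq (GRCm38.p6) and run 5′ to 3′ along the gene, and capitals mark each match to the ISRE core GAAANNGAA, where N is any base, on either strand. Tgtp1, a T-cell-specific GTPase of the interferon-inducible family, is read from chr11:48992234-48992383 on the reverse strand. Igtp (Irgm3), an immunity-related GTPase of the vacuole membrane, is read from chr11:58199456-58199605 on the forward strand. Trim30a, a ubiquitin ligase that restrains Toll-like receptor signalling, is read from chr7:104465144-104465293 on the reverse strand. Phf11b, a PHD-finger protein of an interferon-inducible cluster, is read from chr14:59341291-59341440 on the reverse strand.
Tgtp1: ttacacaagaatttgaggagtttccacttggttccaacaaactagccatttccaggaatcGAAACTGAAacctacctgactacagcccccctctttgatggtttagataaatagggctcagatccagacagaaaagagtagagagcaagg
Igtp: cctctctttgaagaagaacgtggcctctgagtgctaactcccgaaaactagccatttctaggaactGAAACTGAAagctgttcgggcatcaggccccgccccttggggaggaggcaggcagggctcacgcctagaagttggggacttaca
Trim30a: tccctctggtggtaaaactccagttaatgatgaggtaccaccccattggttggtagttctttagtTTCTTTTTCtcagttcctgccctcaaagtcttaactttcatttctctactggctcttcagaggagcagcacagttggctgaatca
Phf11b: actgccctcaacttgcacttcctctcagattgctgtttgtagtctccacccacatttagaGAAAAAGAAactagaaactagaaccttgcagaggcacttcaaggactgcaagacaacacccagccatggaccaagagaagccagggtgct
The first match begins -77 bases from the annotated start in Tgtp1, -34 in Igtp, -35 in Trim30a and -50 in Phf11b, where negative positions lie before the start. In windows of 300 bases (250 before the start and 50 after it) the ISRE core was found in 9 of 10 windows of the interferon-inducible GTPases (90%), and in 20 of 34 windows of the antiviral list (58.8%). It was found in 185 of 1221 windows of genes lower with cell extract (15.2%), in 69 of 1238 windows of genes higher with cell extract (5.57%), in 7.54% of the 13302 windows of genes tested and in 8.56% of all 32851 windows. A match is a description of the sequence and does not show that a factor binds there.

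Interferon-inducible antiviral genes were lower with cell extract than with LPS throughout. All 40 genes of the antiviral list, which restrict viral entry, translation or RNA, fell (median log2 difference -2.16). Trim30a measured 202, 264 and 199 CPM with cell extract and 722, 863, 736 and 821 CPM with LPS, against 76.5 ± 5.27 CPM (SD, n = 4) in untreated cultures. The cell extract libraries lay wholly below the LPS libraries and above the untreated mean, with a log2 difference of -1.83 ± 0.15 (edgeR adjusted p = 3.09e-12). Phf11d, of the same cluster as Phf11b, measured 86.7, 113 and 89.3 CPM and 593, 679, 575 and 680.0 CPM, a log2 difference of -2.71 ± 0.23. Oasl2, which belongs to the oligoadenylate synthetase family of RNA sensors, measured 142, 160.3 and 130.5 CPM and 583, 635, 526 and 539.9 CPM (-1.98 ± 0.18). Herc6, the enzyme that attaches Isg15 to proteins in mice, had 173, 217 and 172 CPM and 635, 805, 696 and 734 CPM (-1.94 ± 0.17). None of these 4 genes had overlapping groups. Rsad2, or viperin, which makes a chain-terminating nucleotide, measured 383, 1078 and 543 CPM with cell extract, where replicate 3 was the high library, against 3092, 3536, 3110.4 and 3598 CPM with LPS (-2.32 ± 0.53, adjusted p = 0.0013). Every one of the 40 genes was higher than in untreated cultures under cell extract (median log2 2.27) as well as under LPS (median log2 5.02).

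The GTPases of the same program, which coat and break the vacuoles of intracellular pathogens, were lower with cell extract too. Of 17 tested, 16 were lower with cell extract and none was higher (median log2 difference -2.42); against untreated cultures 16 were higher with cell extract and 17 with LPS. Tgtp1 measured 0.575, 1.5 and 1.38 CPM with cell extract and 90.6, 89.5, 53.5 and 117 CPM with LPS. The 2 ranges lie far apart, LPS replicate 3 being the lowest of its group, and the difference was -6.19 ± 0.34 on the log2 scale (72.9-fold, adjusted p = 1.50e-16). Gbp4, a guanylate-binding protein, measured 19.5, 26.9 and 20.2 CPM and 497, 556, 324 and 574 CPM (-4.46 ± 0.32). Igtp measured 70.1, 89.6 and 75.3 CPM and 493, 524, 353 and 515 CPM (-2.59 ± 0.21). LPS replicate 3 was the lowest LPS library for both genes too. Gbp2 had the largest fall in CPM of the list, from 3942, 4110.4, 3926 and 4232 CPM with LPS to 1326, 1258 and 1353 CPM with cell extract (-1.63 ± 0.31), and untreated cultures had 50.7 ± 8.2 CPM (SD, n = 4). The Tgtp, Gbp, Trim30 and Phf11 families hold near-identical copies, and reads could be split between them, so the values of single members are uncertain.

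Among the transcription factors of the pathway, 8 of 13 tested fell and none rose (median -0.49). Irf7, which amplifies type I interferon, measured 91.3, 154 and 119 CPM with cell extract and 1864, 1821, 1494 and 1527 CPM with LPS. No library of 1 group reached the other, and the log2 difference was -3.79 ± 0.44 (adjusted p = 1.06e-08). Stat2 measured 92.6, 103 and 89.1 CPM and 278, 293, 258 and 255 CPM (-1.51 ± 0.14). Irf1, the factor behind many Gbp and MHC genes, measured 239.9, 302 and 297 CPM and 859, 732, 681 and 821 CPM (-1.47 ± 0.23). None of these 3 factors had overlapping groups. Of the interferons themselves, Ifng measured 2.3, 4.08 and 2.99 CPM and 23.5, 19.4, 15.2 and 26.8 CPM (-2.73 ± 0.39, adjusted p = 8.42e-07), while Ifnb1 was too low to be tested. Among the receptor subunits, Ifngr1 was higher with cell extract, at 81, 71.5 and 71.2 CPM against 53.4, 49.2, 51.6 and 49.7 CPM (0.55 ± 0.12), and Ifngr2, Ifnar1 and Ifnar2 did not pass the test. The Ly6 and Schlafen families, surface proteins and growth regulators induced by interferon, had 11 of 12 members lower and none higher (median -2.25). Ly6a (Sca-1) measured 6.32, 4.68 and 7.28 CPM with cell extract and 167, 146, 63.3 and 142 CPM with LPS (-4.41 ± 0.31). Slfn4 measured 25.4, 57.8 and 27 CPM and 613, 807, 489 and 781 CPM (-4.19 ± 0.36), with cell extract replicate 3 the highest of its group.

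**Figure D2:**
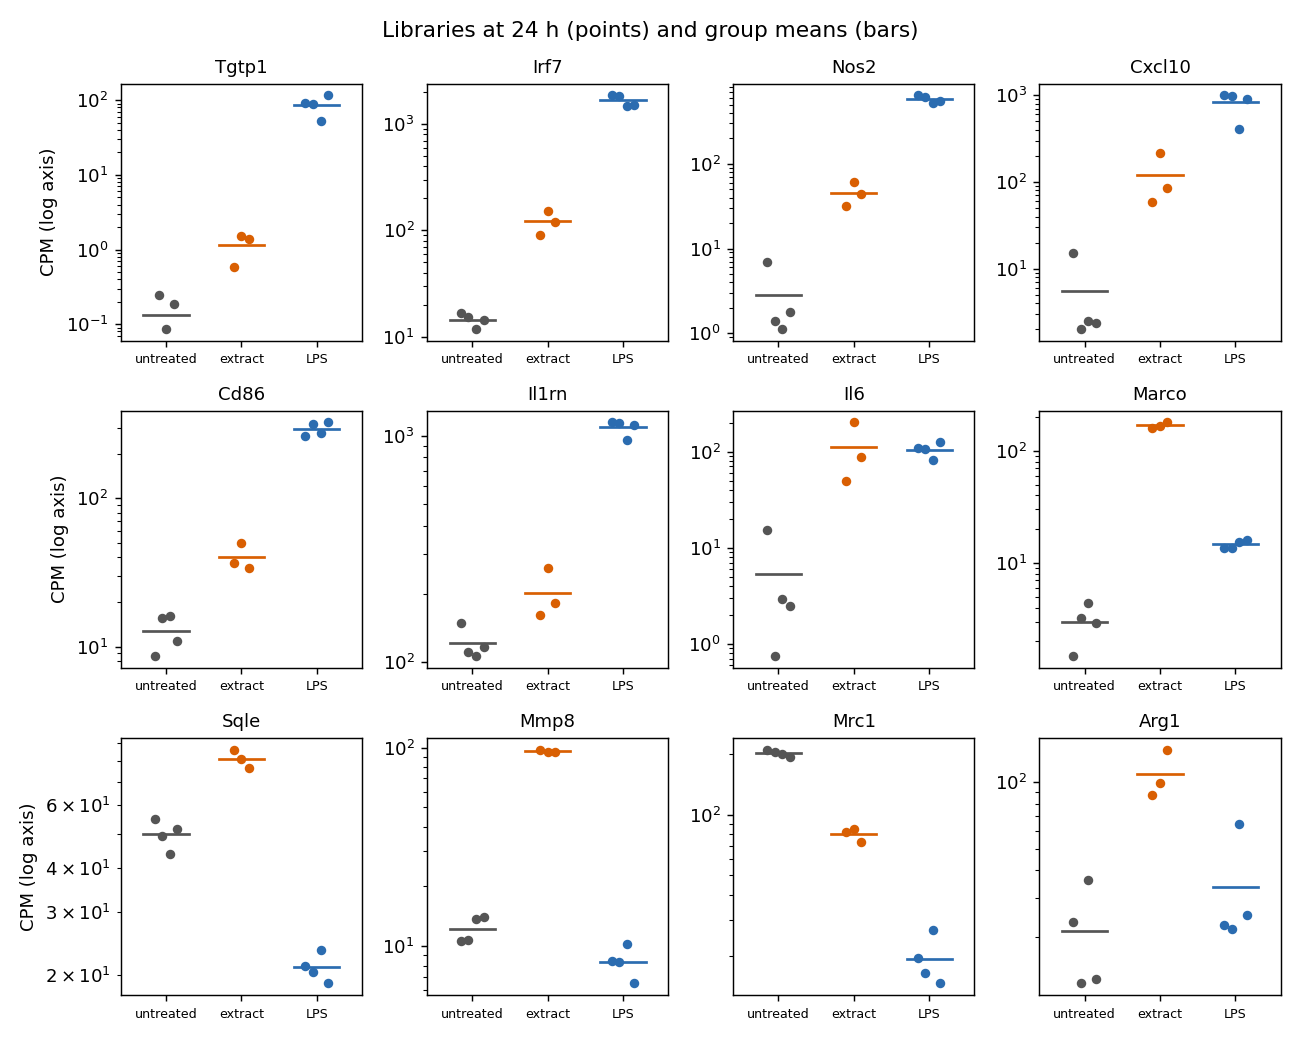
CPM on a log axis for 12 genes in the 4 untreated, 3 cell extract and 4 LPS libraries at 24 h; points are libraries and bars are group means, and 1 untreated library at 0 CPM for Tgtp1 is not drawn. Tgtp1, Irf7, Nos2, Cxcl10, Cd86 and Il1rn lie lower with cell extract than with LPS, Marco, Sqle, Mmp8, Mrc1 and Arg1 lie higher, and the Il6 ranges overlap.

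The 4 interferon-induced chemokines tested were all lower with cell extract (median -3.05), and 7 of 12 CC chemokines were lower and 1 was higher (median -1.42). Of 5 tested in the list of neutrophil-attracting chemokines, which also holds Pf4, none was lower and 2 were higher. Without cell extract replicate 2, 2 of the 4 interferon-induced chemokines and 1 of the neutrophil-attracting ones were called, and the latter count was also 1 without cell extract replicate 3, LPS replicate 1 or LPS replicate 3. Cxcl9, which calls T cells through Cxcr3, measured 23, 30.2 and 24.6 CPM with cell extract and 366, 242, 103 and 327 CPM with LPS (-3.32 ± 0.4, adjusted p = 3.11e-08). LPS replicate 3 was the lowest LPS library but still above every cell extract library. Cxcl10, a second ligand of that receptor, measured 58.4, 214 and 84.2 CPM and 997, 984, 411 and 905 CPM (-2.79 ± 0.81, adjusted p = 0.0114). The call on Cxcl10 was lost without cell extract replicate 2 (-2.47, adjusted p = 0.0854) or replicate 4 (-2.6, adjusted p = 0.0656), and replicate 3 was the high library. The gene overlaps Art3 in the annotation and the strand setting of the counting is not given in the sources used here. Ccl5 (RANTES) measured 133, 325 and 206 CPM and 3724, 4395, 3507 and 3818 CPM (-4.12 ± 0.65). Ccl2, the monocyte chemokine, measured 131, 321 and 185 CPM and 1650.3, 1810.1, 1427 and 2033 CPM (-3.03 ± 0.46). In both, replicate 3 was again the highest cell extract library and the groups did not overlap. The CC chemokine that rose was Ccl6, at 306, 312 and 323 CPM with cell extract and 127, 108, 129 and 108 CPM with LPS (1.41 ± 0.15). Pf4, a platelet-type CXC chemokine, was 1 of the 2 members called higher in the neutrophil-attracting list, the other being Cxcl5. Pf4 measured 131, 148 and 168 CPM against 54.5, 49, 54.4 and 57 CPM (1.47 ± 0.37, adjusted p = 0.00339). The neutrophil chemokines Cxcl1 (127, 135 and 145 CPM against 87.3, 92.5, 70.3 and 78 CPM) and Cxcl3 (327, 314 and 402 CPM against 147, 174, 223 and 177 CPM) had ranges that did not overlap but adjusted p-values of 0.295 and 0.332. When the 7 libraries were fitted alone, both were called higher with cell extract (adjusted p = 0.000293 and 0.000271). Among the receptors, Cxcr4, which binds Cxcl12, measured 49.3, 50 and 50.3 CPM and 13.1, 18.6, 26.9 and 19.5 CPM (1.33 ± 0.22).

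The classical inflammatory cytokines were lower or did not pass the test. Of 20 cytokines tested, 8 were lower with cell extract and none was higher (median -0.998), and 16 were above untreated levels with cell extract and 19 with LPS. Il1b measured 179, 236 and 219.9 CPM with cell extract and 467, 492, 348 and 541 CPM with LPS, against 8.24 ± 6.59 CPM (SD, n = 4) in untreated cultures. The groups did not overlap, but the difference of -1.13 ± 0.66 did not pass the test (adjusted p = 0.29). Tnf gave the same picture, with 236, 323 and 311 CPM and 638, 639, 460.3 and 563 CPM (-0.99 ± 0.61, adjusted p = 0.315). Fitted on the 7 libraries alone, both were called lower, Il1b with an adjusted p of 8.81e-05 and Tnf with 0.00017. Il1b overlaps an antisense gene in the annotation, and with no strand setting stated, reads from the stretch they share cannot be assigned to one of them. Il6 measured 49.1, 201 and 88.9 CPM and 109, 106, 81.6 and 125 CPM. Its groups overlapped, cell extract replicate 3 lying above every LPS library, and the difference was 0.11 ± 0.75 (adjusted p = 0.961), or -0.61, adjusted p = 0.763 without that library. Il12b, a subunit of interleukins 12 and 23, measured 6.57, 22.8 and 9.87 CPM and 36.6, 32.3, 24 and 32.9 CPM (-1.23 ± 0.5, adjusted p = 0.0891); it was called without cell extract replicate 3 (-1.92, adjusted p = 0.0247) and with the replicate number as a block (-1.15, adjusted p = 0.0455). The cytokines that fell included Tnfsf10 (TRAIL), a death ligand, at 5.58, 16.9 and 6.47 CPM against 84.2, 92.3, 53.8 and 87.9 CPM (-3.01 ± 0.35). Il15, which sustains NK and memory T cells, stood at 16.3, 37.7 and 22.3 CPM against 83.3, 90.5, 66.5 and 91.7 CPM (-1.7 ± 0.23). Neither gene had overlapping groups. Csf1, the macrophage growth factor, stood at 36.6, 46.1 and 37.3 CPM against 60.7, 75.5, 84.6 and 72.9 CPM (-0.88 ± 0.14).

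Of 19 genes listed as cytokine antagonists and brakes 7 fell with cell extract and none rose (median -0.41). The list also holds receptor chains such as Il4ra, Il13ra1 and Tnfrsf1a, and the cytokine Tgfb1, so not every member is an inhibitor. Il1rn, the secreted antagonist of the interleukin-1 receptor, measured 161, 259 and 182 CPM with cell extract and 1142, 1141, 955 and 1118 CPM with LPS. The groups were wide apart, at -2.44 ± 0.18 (adjusted p = 3.35e-13), and untreated cultures had 121 ± 19.5 CPM (SD, n = 4). Il18bp, a decoy for interleukin-18, measured 68.4, 52 and 63 CPM and 331, 341, 239 and 328 CPM (-2.34 ± 0.22). Socs1, the feedback inhibitor of Stat signalling, measured 12.5, 22 and 20.9 CPM and 149.6, 93, 76.7 and 149 CPM (-2.65 ± 0.33). Within the NF-kB list 6 of 15 members were lower and none was higher (median -0.42), and 3 were lower without cell extract replicate 2. The adaptor Traf1 stood at 32.1, 40.6 and 41.8 CPM against 186, 149.7, 121 and 144 CPM (-1.97 ± 0.24). Of 20 Toll-like receptors and adaptors 5 were lower and 2 higher. Tlr3, the receptor for double-stranded RNA, measured 17.8, 34.1 and 19.7 CPM and 84.5, 117, 68.8 and 94.2 CPM (-1.93 ± 0.25). Myd88 measured 51.9, 66.4 and 60.1 CPM and 128, 114, 96.2 and 125 CPM (-0.96 ± 0.16). Irak3 (IRAK-M), which damps the same pathway, was higher with cell extract, at 172, 149.7 and 162 CPM against 84.7, 87.9, 83 and 82.7 CPM (0.93 ± 0.2). Of 16 cytosolic sensors and inflammasome genes 10 were lower and 1 higher (median -0.90), the latter called only with LPS replicates 1, 2 and 4 and cell extract replicates 2 and 3 all in the fit. Nod1, a sensor of bacterial peptidoglycan, measured 17.7, 23.1 and 19.8 CPM and 116, 88.2, 72.4 and 82.9 CPM (-2.14 ± 0.18). Casp4 (caspase-11), which senses intracellular LPS, measured 133, 133 and 133 CPM and 391, 387, 352 and 425 CPM (-1.55 ± 0.23).

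Of 21 M1 effector genes tested 9 were lower with cell extract and 1, the scavenger receptor Marco, was higher (median -0.71); all 21 were above untreated levels with LPS and 20 with cell extract. Nos2, the inducible nitric oxide synthase, measured 31.6, 61.9 and 44.1 CPM with cell extract and 646, 621, 518 and 558 CPM with LPS, against 2.81 ± 2.75 CPM (SD, n = 4) in untreated cultures. Every cell extract library was above every untreated library and below every LPS library, and the difference was -3.67 ± 0.49 (12.7-fold, adjusted p = 2.29e-07). Gch1, which makes the cofactor that nitric oxide synthase needs, measured 128, 141 and 157 CPM and 345, 325, 322 and 384 CPM (-1.28 ± 0.18). Slc7a2, an arginine transporter, measured 692, 721 and 664 CPM and 1359, 2004, 2377 and 1465 CPM (-1.38 ± 0.34). Arg1, which consumes the same arginine, was higher with cell extract, at 87.2, 99.5 and 140.1 CPM against 22.7, 21.8, 65.1 and 25.1 CPM, where LPS replicate 3 was the high library of its group (1.68 ± 0.33, adjusted p = 0.00016). Untreated cultures had 21.2 ± 11.2 CPM (SD, n = 4) of Arg1, so cell extract lay above background (2.36, adjusted p = 4.08e-07) and LPS did not pass the test (0.68, adjusted p = 0.0857).

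Of 24 M2 genes tested 7 were higher with cell extract and 3 were lower. The counts were the same without cell extract replicate 4, but the list median turned from 0.71 to -0.12. Mrc1, the mannose receptor, measured 82.2, 85.2 and 73.5 CPM with cell extract and 19.6, 16.3, 26.7 and 14.6 CPM with LPS (2.05 ± 0.25, adjusted p = 3.86e-08). Untreated cultures had 202 ± 6.87 CPM (SD, n = 4), above both groups, so each treatment lowered Mrc1 and LPS lowered it further (-1.33 with cell extract and -3.38 with LPS against the untreated cultures). Pparg, the nuclear receptor of lipid uptake, showed the same order at 13.6, 16 and 14.8 CPM, 4.75, 5.27, 7.17 and 5.14 CPM and 88.5 ± 7.74 CPM (SD, n = 4) (1.38 ± 0.21). Chil3 (Ym1) measured 92.8, 86.7 and 372 CPM and 171, 69.7, 80.2 and 93.2 CPM, and Retnla (Fizz1) 2.3, 1.93 and 15.6 CPM and 4.2, 1.94, 3.11 and 3.66 CPM. In both, cell extract replicate 4 was far above the other 6 libraries, and the differences of 0.83 ± 0.55 and 1.08 ± 0.76 did not pass the test (adjusted p = 0.354 and 0.398) and became -0.2, adjusted p = 0.888 and -0.54, adjusted p = 0.765 without it. Ccl17 stayed at or under 2.15 CPM; it was called lower (-2.34 ± 0.66, adjusted p = 0.0114), and was not called without LPS replicate 3 (-1.4, adjusted p = 0.202) or cell extract replicate 2 (-2.28, adjusted p = 0.05). Klf4, a transcription factor listed with the M2 genes, went the other way from Mrc1, at 18.1, 17.4 and 20.2 CPM against 83.6, 71.3, 65.9 and 103 CPM (-2.13 ± 0.36).

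Antigen presentation was lower with cell extract in both classes. All 19 class I genes tested were lower than with LPS (median -1.35), as were 10 of 11 class II genes (median -1.01). Against untreated cultures, 17 of the class I genes were higher and none lower with cell extract, and 19 were higher with LPS. Of the class II genes, 6 were higher and 1 lower than untreated with cell extract, and 9 were higher and none lower with LPS. B2m, the light chain of class I, measured 6672, 6804 and 6976 CPM with cell extract and 11122, 13739, 12228 and 13912 CPM with LPS (-0.9 ± 0.17, adjusted p = 0.000112). The heavy chain H2-K1 measured 2313, 2503 and 2672 CPM and 6523, 5527, 5185 and 6225 CPM (-1.23 ± 0.18). Tap1, a subunit of the peptide pump of the endoplasmic reticulum, measured 208, 237 and 212 CPM and 781, 593, 569 and 629 CPM (-1.55 ± 0.19). Each of the 3 class I genes had every cell extract library below every LPS library. For class II, Ciita, the master activator, measured 8.7, 8.6 and 9.06 CPM and 51.5, 33.1, 28.8 and 28 CPM (-1.99 ± 0.31). The beta chain H2-Ab1 measured 284, 256 and 307 CPM and 806, 565, 526 and 676 CPM (-1.19 ± 0.21). LPS replicate 1 was the high library for both class II genes and the groups did not overlap. Of 14 costimulatory and checkpoint molecules 8 were lower and 1 was higher (median -0.80). Cd86, the ligand of Cd28, measured 36.5, 50 and 33.9 CPM and 262, 320.0, 275 and 326 CPM (-2.88 ± 0.19, adjusted p = 1.19e-14); untreated cultures had 12.8 ± 3.6 CPM (SD, n = 4). Slamf1 measured 1.97, 1.56 and 1.46 CPM and 19.6, 19.1, 45.6 and 20.9 CPM, LPS replicate 3 being the high library (-3.99 ± 0.3). The member that rose was Vsir (VISTA), an inhibitory checkpoint of the B7 family, at 148, 152 and 144 CPM against 70.2, 57, 66 and 54.9 CPM (1.26 ± 0.14); untreated cultures had 410.3 ± 44.6 CPM (SD, n = 4).

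**Figure D3:**
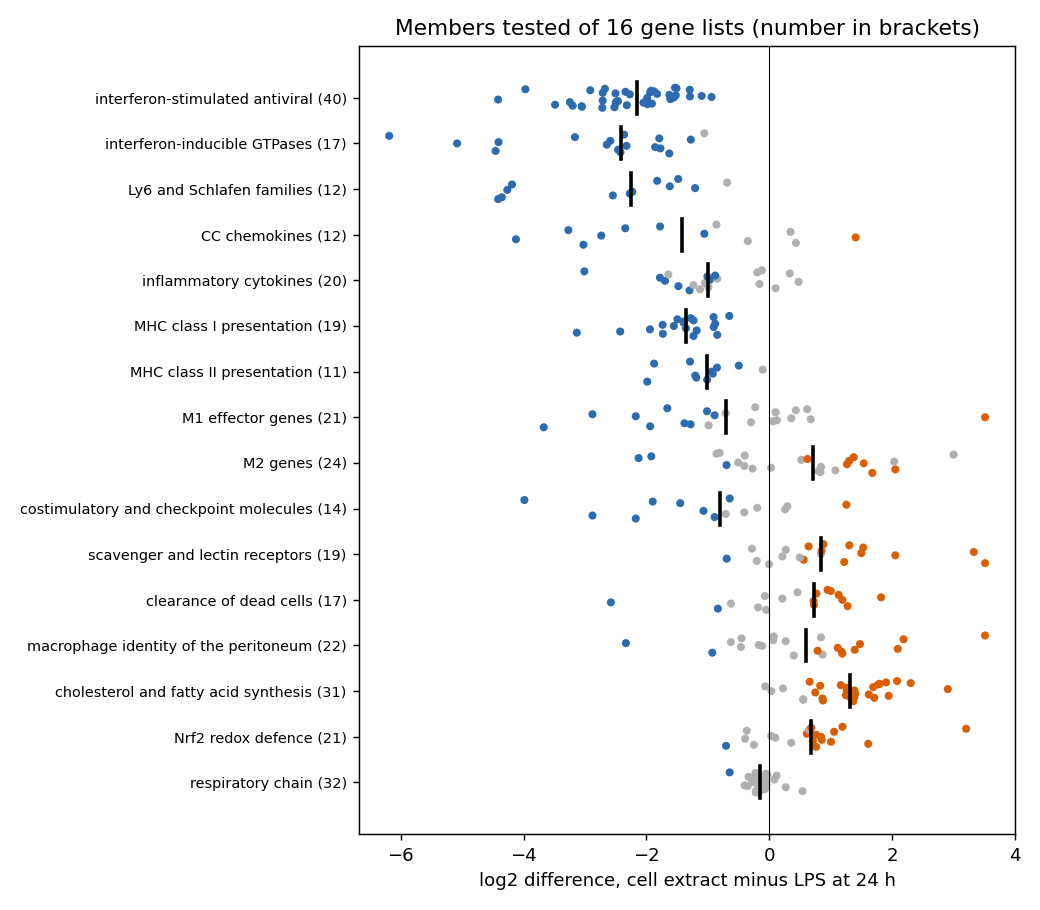
Log2 differences, cell extract minus LPS at 24 h, of the tested members of 16 gene lists; grey points are members that did not pass the test, coloured points those called, and the black bar is the list median. The antiviral list has 40 of 40 members called lower (median -2.16), and the sterol and fatty acid list has 26 of 31 called higher (median 1.31).

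Uptake receptors were mostly higher with cell extract than with LPS. Of 19 scavenger and lectin receptors tested 11 were higher with cell extract and 1 was lower (median 0.84), and of 17 genes for the clearance of dead cells 9 were higher and 2 lower (median 0.72). Without LPS replicate 1 or cell extract replicate 2, 1 clearance gene was called lower. Against untreated cultures, 3 of the 17 clearance genes were higher and 11 lower with cell extract (median -0.72). With LPS, 4 were higher and 12 lower (median -1.13). The scavenger and lectin receptors had 9 higher and 4 lower with cell extract against those cultures, and 9 higher and 9 lower with LPS. Marco, a collagen-like scavenger receptor for bacteria and particles, measured 159.7, 167 and 179 CPM with cell extract and 13.7, 13.5, 15.5 and 16 CPM with LPS. The values were tight in both groups, the difference was 3.52 ± 0.29 (11.4-fold, adjusted p = 3.37e-12), and untreated cultures had 3.01 ± 1.2 CPM (SD, n = 4), below both. Cd36, a receptor for oxidised lipoprotein and dead cells, measured 2204, 2169 and 2008 CPM and 785, 915, 1071 and 875 CPM (1.22 ± 0.15). The C-type lectins Clec4a2 (32.4, 31.5 and 35.2 CPM against 3.36, 3.56, 3.11 and 3.06 CPM, 3.33 ± 0.29) and Clec4a1 (119.9, 104 and 95.7 CPM against 39.2, 45.9, 25.5 and 40.2 CPM, 1.5 ± 0.19) rose too, and they belong to a family of close copies. Clec7a (Dectin-1), which recognises fungal beta-glucan, measured 1354, 1192 and 1285 CPM and 361, 375, 896 and 435 CPM, where LPS replicate 3 stood high (1.3 ± 0.19). In these 5 receptors every cell extract library lay above every LPS library. Cd93 measured 215, 224 and 194 CPM and 57.3, 67.8, 60.3 and 52.8 CPM (1.82 ± 0.19). Mfge8, the bridge between phosphatidylserine and integrins, measured 791, 937 and 883 CPM and 629.5, 506, 511 and 463 CPM (0.72 ± 0.14). Axl, a receptor kinase for dead cells that interferon induces, was lower with cell extract, at 66.5, 91.9 and 73.6 CPM against 509, 534, 374 and 432 CPM (-2.58 ± 0.19). Of 11 Fc gamma receptor and Trem genes tested 3 were lower, 1 was higher and 7 were not called (median 0.22). Without LPS replicate 3 or 4 none was called higher. Fcgr1, which fell, measured 42.5, 47.5 and 38.6 CPM and 229.6, 239, 157 and 239.8 CPM (-2.33 ± 0.21). Fcgr4 measured 52.3, 54 and 51.1 CPM and 286, 256, 136 and 250.3 CPM (-2.14 ± 0.23). Of 14 complement genes 2 rose and 6 fell. Cfb, which drives the alternative pathway, measured 108, 109.6 and 128 CPM and 255, 232, 349.7 and 462 CPM (-1.5 ± 0.34).

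Genes of macrophage identity were more often higher than lower: 9 of 22 rose, 2 fell and 11 were not called (median 0.60). Fcgr1, given above, was 1 of the 2 that fell. Of the 12 macrophage markers 5 rose, 1 fell and 6 were not called. Lyz2, the macrophage lysozyme, measured 14751, 14486 and 15213 CPM with cell extract and 5395, 5509.8, 5065 and 5288 CPM with LPS (1.48 ± 0.2, adjusted p = 3.58e-07). The groups did not overlap, and untreated cultures had 10321 ± 2240.1 CPM (SD, n = 4), between the groups. Adgre1, a surface receptor that marks mature mouse macrophages, measured 2105, 1976 and 1799 CPM and 826, 1042, 787 and 802 CPM (1.18 ± 0.19). Itgam (CD11b) measured 511, 469 and 443 CPM and 174, 201, 167 and 179 CPM (1.39 ± 0.16). Cybb, the catalytic subunit of the phagocyte oxidase, measured 11215, 9631 and 9516 CPM and 5499, 6852, 6822 and 6319 CPM (0.67 ± 0.2, adjusted p = 0.0129), and was not called without cell extract replicate 2 (0.59, adjusted p = 0.0807).

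Enzymes of sterol and fatty acid synthesis were mostly higher with cell extract. Of 31 tested 26 were higher with cell extract and none was lower (median 1.31); against untreated cultures, 19 were higher and none lower with cell extract, while 1 was higher and 12 lower with LPS. Sqle, the squalene epoxidase, measured 86.1, 80.8 and 76.6 CPM with cell extract and 21.3, 20.4, 23.6 and 19 CPM with LPS, against 49.8 ± 4.76 CPM (SD, n = 4) in untreated cultures. The cell extract libraries lay above the untreated mean and the LPS libraries below it, and the difference was 1.95 ± 0.15 (adjusted p = 3.80e-13). Cyp51, which demethylates lanosterol, measured 135, 126 and 125 CPM and 38.6, 44.6, 45.6 and 37.8 CPM (1.62 ± 0.14). Lss, which closes the sterol rings, measured 43.8, 44.7 and 42.6 CPM and 18.7, 19.1, 17.2 and 18.6 CPM (1.25 ± 0.12). These 3 sterol genes had every cell extract library above every LPS library. In fatty acid synthesis, the desaturase Scd2 measured 345, 329 and 300.2 CPM and 59.3, 72.3, 73.7 and 57 CPM (2.3 ± 0.24). Acss2, which makes acetyl-CoA from acetate, measured 39, 34.2 and 35.9 CPM and 7.55, 9.68, 7.01 and 9.78 CPM (2.08 ± 0.2). The fatty acid genes did not overlap either. Sterol genes are classically driven by Srebf2 through the sterol regulatory element. The start region of Hmgcs1, the synthase that makes HMG-CoA, is shown as the 1 window of the list with the core TCACCCCAC on either strand, in capitals. It is read from RefSeq (GRCm38.p6) at chr13:119690154-119690303, forward strand, and the match begins -137 bases from the start.
Hmgcs1: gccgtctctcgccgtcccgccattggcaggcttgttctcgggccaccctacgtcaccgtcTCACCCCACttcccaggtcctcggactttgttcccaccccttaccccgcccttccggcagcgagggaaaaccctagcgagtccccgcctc
Hmgcs1 itself measured 126, 127 and 109 CPM with cell extract and 38, 50.7, 51.2 and 46.3 CPM with LPS (1.37 ± 0.16, adjusted p = 1.21e-08). That 9-base core was in 1 of 27 windows of the list (3.7%) and in 0.551% of all windows.

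**Figure D4:**
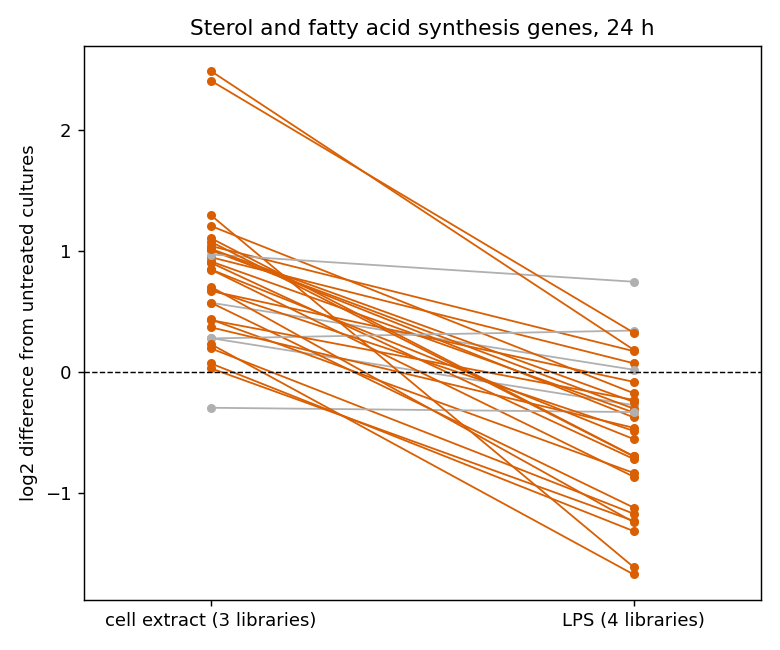
Fitted log2 difference from untreated cultures at 24 h for the 31 sterol and fatty acid genes tested, 1 line per gene joining cell extract (3 libraries) and LPS (4 libraries). Lines for the 26 genes called higher with cell extract are orange, the 5 not called are grey, and the dashed line at 0 is the untreated mean.

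Lipid handling outside synthesis was mixed. Of 15 Pparg targets and fatty acid genes 5 were higher with cell extract than with LPS and none lower. Against untreated cultures, none of the 15 was higher with either treatment, while 9 were lower with cell extract and 11 with LPS. Of 14 LXR targets 2 were higher with cell extract than with LPS and 5 lower. Leaving out any 1 of LPS replicates 1, 3 and 4 or of the cell extract replicates left 1 LXR target higher, and without LPS replicate 1 or cell extract replicate 3, 3 were lower. Fabp4, the fatty acid carrier, measured 167, 232 and 232 CPM with cell extract and 70.5, 56.1, 71.6 and 73.5 CPM with LPS (1.63 ± 0.25). Lpl, the lipoprotein lipase, measured 3928, 3919 and 3843 CPM and 1905, 2057, 2022 and 2105 CPM (0.95 ± 0.15). Abcg1, the cholesterol exporter, was lower, at 111, 112 and 112 CPM against 177, 179, 152 and 171 CPM (-0.61 ± 0.14), as was Ch25h, which makes the antiviral oxysterol, at 8.13, 14.3 and 12.4 CPM against 44.5, 44.3, 37.6 and 50.4 CPM (-1.92 ± 0.35). Of 30 genes in the lysosome list 3 were higher, 5 were lower and 22 were not called (median 0.000529). Over all genes tested, 8.06% were higher and 8.76% lower. Lipa, the lysosomal acid lipase, measured 1666, 1530.0 and 1406 CPM and 491, 594, 542 and 504 CPM (1.53 ± 0.2). Npc2, which hands cholesterol to Npc1, measured 960.1, 1066 and 1076 CPM and 2803, 2457, 2659.5 and 2671 CPM (-1.36 ± 0.12). Cathepsin H, Ctsh, measured 388, 381 and 417 CPM and 1360.3, 1204, 936 and 1198 CPM (-1.57 ± 0.17). The 3 lysosomal genes had no overlap between groups. Sort1, a sorting receptor for lysosomal proteins that is in none of the lists, measured 112, 118 and 102 CPM and 9.51, 12.5, 11.6 and 10.2 CPM (3.32 ± 0.25); untreated cultures had 138 ± 15.3 CPM (SD, n = 4), so LPS lay below background and cell extract did not differ from it by the test.

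Redox genes under Nrf2, the sensor of electrophilic stress, were mostly higher with cell extract than with LPS. Of 21 tested 13 were higher and 1 lower (median 0.69), and none was lower without cell extract replicate 2 or 3. Against untreated cultures, 16 were higher and 1 lower with cell extract (median 1.18), and 14 were higher and 2 lower with LPS (median 0.73). The median difference between cell extract and LPS was 1.18 at 8 h and -0.105 at 72 h. Gsta3, a glutathione transferase, measured 13.4, 13.5 and 14 CPM with cell extract and 1.4, 1.24, 0.797 and 2.47 CPM with LPS, against 0.761 ± 0.427 CPM (SD, n = 4) in untreated cultures. The difference was 3.21 ± 0.44 (9.24-fold, adjusted p = 4.76e-07), with cell extract clear of both other groups. Nqo1, the quinone reductase, measured 24.4, 22.5 and 21.9 CPM and 8.39, 7.13, 6.85 and 7.81 CPM (1.61 ± 0.24). Txnrd1, the thioredoxin reductase, measured 614, 572 and 586 CPM and 303, 344, 342 and 315 CPM (0.86 ± 0.13). Srxn1 measured 424, 389 and 424 CPM and 230.4, 245, 235 and 207 CPM (0.85 ± 0.15). The groups did not overlap for any of the 4 genes. The start regions of Gsta3 and Txnrd1 are shown with the antioxidant response element core TGACNNNGC (either strand) in capitals, read from RefSeq (GRCm38.p6) at chr1:21240404-21240553, forward strand, and at chr10:82859054-82859203, forward strand.
Gsta3: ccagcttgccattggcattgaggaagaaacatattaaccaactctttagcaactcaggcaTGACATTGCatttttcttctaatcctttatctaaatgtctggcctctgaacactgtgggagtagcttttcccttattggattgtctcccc
Txnrd1: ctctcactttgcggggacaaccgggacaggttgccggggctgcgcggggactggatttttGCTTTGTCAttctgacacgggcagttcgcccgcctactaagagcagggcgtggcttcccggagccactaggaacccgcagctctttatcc
That core was in 8 of 22 windows of the list (36.4%), in 15.9% of windows of genes higher with cell extract and in 13.5% of windows of genes lower. It was in 14.2% of the windows of genes tested and in 12.4% of all windows. Of 20 endoplasmic reticulum stress genes 7 were higher and none lower (median 0.33). Without cell extract replicate 2 the count was 3, and without cell extract replicate 4 or LPS replicate 1 it was 4. Herpud1, a part of the protein disposal machinery, stood at 34.5, 32.7 and 34.8 CPM against 14.3, 12.8, 12.9 and 12.7 CPM (1.38 ± 0.14). Among 21 Atf4 targets 1 rose and 3 fell, while 1 fell when any cell extract library or LPS replicate 4 was left out, and 2 rose without cell extract replicate 4 or LPS replicate 3. The 1 that rose in the full fit was the cystine importer Slc7a11, which Nrf2 also drives, at 852, 725 and 714 CPM against 285, 445, 429 and 307 CPM (1.06 ± 0.23). Ddit3 (CHOP) was lower, at 35.7, 31 and 35.6 CPM against 91.7, 55.4, 75.5 and 77.3 CPM (-1.13 ± 0.28). Of 16 iron genes 3 rose and none fell, among them the transferrin receptor Tfrc at 371, 356 and 295 CPM against 124, 171, 172 and 127 CPM (1.2 ± 0.24).

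Few genes of the respiratory chain, the cytosolic ribosome and the cell cycle were called. Of 32 respiratory chain genes 1 was lower and none higher, of 38 cytosolic ribosomal protein genes 1 was lower and none higher, and of 37 cell cycle genes 3 were lower and none higher. Each share is below the 8.76% of all genes called lower or close to it. The cell cycle gene with the smallest p was Ccne1, the cyclin of S-phase entry, at 6.82, 6.13 and 7.28 CPM with cell extract and 31.3, 35.6, 35 and 35.5 CPM with LPS (-2.35 ± 0.18). In glycolysis 5 of 20 were lower and 1 higher, with 3 lower without cell extract replicate 2 and 2 without replicate 4. Ldha, the lactate dehydrogenase, measured 459, 473 and 510.2 CPM and 864, 769.6, 875 and 787 CPM (-0.78 ± 0.15). The aldolase Aldoc, which rose, measured 7.23, 7.2 and 6.56 CPM and 1.12, 1.08, 1.91 and 1.09 CPM (2.38 ± 0.26). Of 21 genes of the TCA cycle and itaconate 4 were higher and none lower. Idh1, which makes NADPH in the cytosol, measured 206, 212 and 195 CPM and 76.9, 79.4, 80 and 78.2 CPM (1.38 ± 0.14). Ogdh measured 165, 157 and 142 CPM and 87.5, 94.4, 80.9 and 77.4 CPM (0.86 ± 0.17).

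Lipid mediators and proteases moved in both directions. Of 16 prostaglandin and leukotriene genes 9 were higher with cell extract and 4 lower (median 0.64), or 2 lower without cell extract replicate 2. Ptgs1, the constitutive cyclooxygenase, measured 28.3, 31.2 and 29.9 CPM with cell extract and 11.2, 10.5, 14.1 and 9.19 CPM with LPS (1.4 ± 0.14). Alox5ap, the partner of 5-lipoxygenase, measured 76, 77.1 and 85.7 CPM and 21, 24.6, 23.1 and 27.5 CPM (1.72 ± 0.21). Tbxas1, the thromboxane synthase, measured 74, 72.2 and 78.2 CPM and 36.9, 37.6, 39.3 and 37.6 CPM (0.98 ± 0.13). None of the 3 had overlapping groups. Of 20 plasminogen and matrix protease genes 5 rose and 5 fell. Mmp8, the neutrophil collagenase, measured 97.6, 94.5 and 94.5 CPM and 8.39, 8.29, 10.3 and 6.52 CPM, against 12.3 ± 1.8 CPM (SD, n = 4) in untreated cultures (3.51 ± 0.46, 11.4-fold, adjusted p = 2.11e-07). It is also 1 of the 11 neutrophil markers given above, whose part in this difference was not tested. Mmp9, the gelatinase, measured 113, 109.6 and 114 CPM and 26.8, 30, 24.5 and 20.1 CPM (2.15 ± 0.18). On the lower side, Serpinb2 measured 292, 289.7 and 278 CPM and 469, 656, 546 and 597 CPM (-0.98 ± 0.21).

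Regulators of growth, death and signalling were also divided. Of 17 growth factors 3 rose and 4 fell. Igf1 measured 186, 187 and 182 CPM with cell extract and 61.5, 76, 162 and 69.2 CPM with LPS, where LPS replicate 3 lay near the cell extract libraries and the other 3 well below (1 ± 0.2, adjusted p = 0.000257). Hgf, the hepatocyte growth factor, measured 10, 13 and 11.3 CPM and 7.27, 6.27, 4.94 and 5.43 CPM (0.97 ± 0.23). Of 27 AP-1, Egr and Maf factors 6 rose and 6 fell: Maf measured 129, 125 and 123 CPM and 65.4, 55.9, 45.1 and 66.3 CPM (1.12 ± 0.21). Both growth factors and Maf were higher in every cell extract library. Batf2, an interferon-inducible partner of Irf1, measured 12.7, 18.3 and 18.7 CPM and 124, 87.9, 61.4 and 99.2 CPM (-2.48 ± 0.25). Of 25 p53 and cell death genes 3 rose and 9 fell (median -0.51). Mlkl, the pore former of necroptosis, measured 74.2, 83.2 and 71.5 CPM and 253, 272, 238 and 291 CPM (-1.79 ± 0.15). Cdkn1a (p21) measured 84.2, 115 and 111 CPM and 478, 377, 320.3 and 404 CPM (-1.93 ± 0.25). Bcl2, which protects mitochondria, was higher, at 33.3, 27 and 28.9 CPM against 5.31, 7.36, 11.6 and 8.5 CPM (1.81 ± 0.2), and so was its opponent Bcl2l11 (Bim), at 20.7, 18.5 and 18.9 CPM against 7.83, 6.97, 4.78 and 6.42 CPM (1.61 ± 0.2). Of 16 purinergic genes 5 rose and 6 fell, and 3 rose without LPS replicate 4. P2rx7, the ATP-gated channel of inflammasome activation, measured 52.8, 56.5 and 47.8 CPM and 26.6, 34.2, 31.9 and 25.6 CPM (0.82 ± 0.16). The adenosine receptor Adora2b measured 4.27, 5.32 and 6.31 CPM and 24.1, 26.2, 23.1 and 25.7 CPM (-2.22 ± 0.23).

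Several of the largest single differences lay outside the lists. Wfdc21, a small secreted protease-inhibitor-like protein, measured 5.01, 4.78 and 7.2 CPM with cell extract and 1.12, 0.155, 0.159 and 0.593 CPM with LPS (3.77 ± 0.61, adjusted p = 1.69e-05), and the library ranges did not meet. H19, an imprinted noncoding RNA of embryonic tissue, measured 2.96, 2.31 and 1.62 CPM and 0, 0.232, 0.159 and 0.198 CPM (3.63 ± 0.66); untreated cultures had 0.67 ± 0.147 CPM (SD, n = 4). Prkcb, a protein kinase C, measured 129, 120.4 and 119 CPM and 13.4, 24.7, 18 and 16.7 CPM (2.73 ± 0.19). These 3 genes were higher in every cell extract library than in any LPS library. On the lower side, Ms4a4c, a membrane protein of the CD20 family, measured 40.6, 102 and 53.7 CPM and 1872, 2080.4, 1779.6 and 2342 CPM (-4.95 ± 0.69). Slc6a19, a neutral amino acid transporter best known from kidney and gut, measured 0.411, 1.34 and 1.29 CPM and 28.5, 25.7, 20.8 and 27.1 CPM, and AW112010, an interferon-inducible transcript, 713, 696 and 736 CPM and 2753, 2926, 2310.1 and 2845 CPM. Their differences were -4.6 ± 0.39 and -1.92 ± 0.39. Acta2, the smooth muscle actin, measured 18.8, 16.9 and 17.8 CPM and 5.31, 3.95, 4.38 and 4.15 CPM (2.03 ± 0.21); untreated cultures had 10.1 ± 2.04 CPM (SD, n = 4), and the part of other cell types in this difference was not tested. Klrb1c (NK1.1), a marker of NK cells, was seen at 1.97, 1.5 and 0.971 CPM with cell extract and 0, 0, 0.0797 and 0.0988 CPM with LPS, while the 9 T and NK markers together summed to 6.986 to 8.868 CPM and 4.958 to 8.683 CPM, ranges that overlap.

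The difference in most genes of the antiviral list was smaller at 24 h than at 8 h. At 8 h, 2036 genes were higher with cell extract than with LPS (14% of genes tested) and 2198 lower (15.1%); at 72 h 1604 were higher (11%) and 1651 lower (11.4%). The difference at 24 h minus the difference at 8 h was above 0 for 1129 genes (7.77%) and below 0 for 644 (4.43%). With the groups compared fitted alone, the counts were 1504 and 1519, so the larger number above 0 was not seen in that fit. All 40 antiviral genes were lower with cell extract at 8 h (median log2 -4.71), and the difference at 24 h was above that at 8 h for 36 of the 40 and below it for none. It was above for 5 of 17 interferon-inducible GTPases and below for 1, above for 1 of 4 interferon-induced chemokines and below for none, and above for 3 and below for 3 of 19 MHC class I genes. Rsad2 had mean CPM of 77.1 with cell extract and 14896 with LPS at 8 h, and 668 and 3334 at 24 h. Its log2 difference went from -7.59 to -2.32, a change of 5.28 ± 0.7 (adjusted p = 4.15e-07). Ifit2, which binds foreign RNA, went from -7.78 to -2.52 (5.26 ± 0.79), and Cmpk2, a mitochondrial nucleotide kinase next to Rsad2, from -7.96 to -1.99 (5.97 ± 0.81). The 24 h call on Cmpk2 was lost without cell extract replicate 2 (-1.67, adjusted p = 0.118) or replicate 4 (-1.83, adjusted p = 0.0798). The LPS means for Rsad2 were lower at 24 h than at 8 h while the cell extract means were higher, and Il6 and Cxcl10 also differed between the times: Il6 went from -3.83 to 0.11 (3.94 ± 1.03, adjusted p = 0.00709) and Cxcl10 from -7.23 to -2.79 (4.44 ± 1.03). In the other direction, Trem1, an amplifier of Toll-like receptor signals, went from 0.9 to -1.94 (-2.85 ± 0.68), and Dnmt3l from 3.71 to -0.27 (-3.98 ± 0.56). Mrc1, Cd36 and Mmp8 did not pass the test at 8 h: Mrc1 went from 0.11 to 2.05 (1.95 ± 0.34), Cd36 from -0.1 to 1.22 (1.33 ± 0.2) and Mmp8 from 0.25 to 3.51 (3.25 ± 0.67).

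Against 72 h, the difference at 24 h was above that at 72 h for 434 genes (2.99%) and below it for 441 (3.03%), the latter 283 without cell extract replicate 4. Of the sterol and fatty acid genes, 19 of 31 had a larger difference at 24 h than at 72 h and none a smaller one, and the list median went from 1.11 at 8 h to 1.31 at 24 h and 0.16 at 72 h. Sqle went from 1.95 at 24 h to 0.39 at 72 h (1.56 ± 0.21, adjusted p = 2.03e-06), and Scd2 from 2.3 to -0.58 (2.89 ± 0.35). The list median of the neutrophil chemokines was 0.75 at 24 h and -2.47 at 72 h. Cxcl1 went from 0.73 at 24 h to -2.95 at 72 h (3.68 ± 0.65, adjusted p = 0.000188). S100a8, a calcium-binding alarmin of myeloid cells, measured 151, 123 and 169 CPM with cell extract and 62.6, 60.4, 54.8 and 63.1 CPM with LPS at 24 h. It was higher with cell extract at 24 h (1.29 ± 0.24) and lower at 72 h (-3.48), a change of 4.77 ± 0.36. Susd2, a membrane protein of the sushi domain family, went from 1.01 to -4.19 (5.2 ± 0.71). Its difference at 24 h did not pass the test (adjusted p = 0.117) but did with the replicate block within each time (adjusted p = 0.025) and with the 7 libraries fitted alone (0.000961). Among genes whose difference was lower at 24 h than at 72 h, Ccl12, a mouse monocyte chemokine, went from -3.27 to 0.44 (-3.71 ± 0.81), and Ifit1bl1, an Ifit family gene, from -4.83 to -1.39 (-3.43 ± 0.56). Slc13a3, a dicarboxylate transporter, was higher with cell extract at both times and more so at 72 h (1.85 and 6.01). Marco was higher with cell extract at both times, by 3.52 and 3.51.

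**Figure D5:**
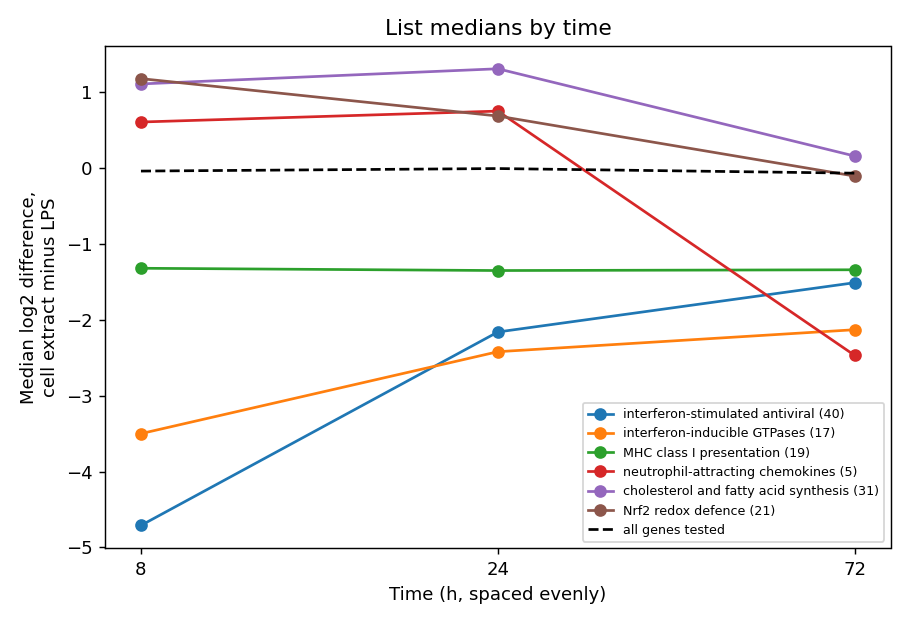
Median log2 difference, cell extract minus LPS, at 8, 24 and 72 h (horizontal axis in h, spaced evenly) for 6 gene lists, with the 14537-gene median as a dashed line. The antiviral median runs from -4.71 to -2.16 and -1.51, and the sterol and fatty acid median from 1.11 to 1.31 and 0.16.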

How the data were processed

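PolyA RNA was sequenced from 44 libraries. The authors deposited a table of raw counts per gene, and the submitters' processing notes name cutadapt, Bowtie2, TopHat2 2.1.1, HTSeq, DESeq and edgeR on mm10, with no role or order. The strand setting of the counting is not given in the sources used here. Rows that name no gene were left out. From the counts, edgeR 4.0.16 (R 4.3.3, limma 3.58.1) fitted 12 groups of all 44 libraries with TMM scaling, a filter at a minimum count of 10 (filterByExpr), glmQLFit and glmQLFTest. This tested 14537 genes, with Benjamini-Hochberg adjustment and a call at 0.05. CPM are per scaled library, and SE is the size of the log2 difference over the square root of F. Genes were named by a rule: the largest changes each way, up to 5 members per list with the smallest p, 11 fixed polarization genes and the largest time differences; some genes the rule names are not reported here. The comparison, the lists and the rule were chosen with earlier results of these data known. Same-numbered libraries deviated together from their group means (r = 0.31, 0.249 and 0.171), so the replicate number was used as a block in an alternative run. The main fit, which gave the SE and adjusted p-values above unless stated, had no block. Alternatives were DESeq2 1.42.0, RLE scaling, no filter, the compared groups alone, the replicate block and each library left out. The test was checked on simulated counts.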

Additional observations from a re-analysis of the deposited data

Results flagged for a closer look

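In 12 of the 135 genes given in the text, 1 of the 4 LPS libraries at 24 h lay apart from the other 3 by Dixon's ratio at the 95% level, a mark that chance gives in about 1 in 20 groups. LPS replicate 3 was the library apart in 9 of them. It was high for Arg1 (65.1 CPM), Clec7a (896 CPM), Igf1 (162 CPM), Slamf1 (45.6 CPM) and Aldoc (1.91 CPM). It was low for Cxcl10 (411 CPM), Fcgr1 (157 CPM), Il18bp (239 CPM) and Il1rn (955 CPM). LPS replicate 2 was high for Adgre1 (1042 CPM), and LPS replicate 1 was high for Herpud1 (14.3 CPM) and low for Ccne1 (31.3 CPM). Of the 7 libraries, LPS replicate 3 is also the one with the most ambiguous reads and the largest shares of Lars2 and ribosomal RNA counts. The part of these in the values above was not tested.

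The difference between cell extract and LPS changed with time by the interaction test. Between 8 and 24 h it moved up in 1129 genes and down in 644. The log2 change was 5.97 for Cmpk2, 5.28 for Rsad2, 5.26 for Ifit2, 4.44 for Cxcl10, 3.94 for Il6, 3.25 for Mmp8, 1.95 for Mrc1 and 1.33 for Cd36, and it was -3.98 for Dnmt3l and -2.85 for Trem1. The difference at 24 h was above that at 72 h in 434 genes and below it in 441. That gap was 5.20 for Susd2, 4.77 for S100a8, 3.68 for Cxcl1, 2.89 for Scd2 and 1.56 for Sqle, and -3.71 for Ccl12 and -3.43 for Ifit1bl1.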

How the results depend on the processing

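Fitted alone, the groups compared gave 1867 genes higher and 2223 lower at 24 h, and 1504 genes with a higher and 1519 with a lower difference at 24 h than at 8 h; the cause was not tested. With 1 library left out, 831 to 1090 genes were higher and 925 to 1184 lower at 24 h. The differences between times then held 907 to 1079 genes above and 466 to 594 below for 8 h, and 336 to 414 above and 283 to 430 below for 72 h. The replicate block gave 1286 higher and 1436 lower, and among the genes named it changed the call on Il12b (-1.15, adjusted p = 0.0455) and no other. A block within each time, chosen after seeing the data, gave 1360 and 1555, and Susd2 gained a call (1.11, adjusted p = 0.025). Of the 135 genes named, 121 kept direction and call under every alternative run. With 1 library left out, the log2 difference ranged from -0.61 to 0.46 for Il6, from -0.20 to 1.18 for Chil3 and from -0.54 to 1.55 for Retnla, with the sign turned without cell extract replicate 3 for Il6 and replicate 4 for the other two. Without the filter, Abcg1 lost its call (-0.54, adjusted p = 0.0793), and Il1b, Tnf, Il12b, Cxcl1, Cxcl3, Chil3, Retnla and Susd2 gained one. Depth limits LPS replicate 1 most, at 3593885 counts.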
